A study of Homo sapiens with 8 samples.

Results

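Histone genes were followed through U2OS cells that overexpressed MYC, carried Zab, or had both or neither. The set holds every gene whose symbol names a linker or core histone (H1, H2A, H2B, H3 or H4) or one of the variants H2A.Z, H2AX, H2A.J, H3.3 and macroH2A. By this symbol rule, 78 of the 19414 genes in the tables are members. Of them, 66 are replication-dependent genes, 55 on chromosome 6 and 11 on chromosome 1, and 12 are variant genes. Members with 10 or more tags (sequenced fragments) summed over the 8 libraries were compared, which left 32 genes, 22 replication-dependent and 10 variant, and 9 of these variants are described here.

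U2OS is an established human osteosarcoma cell line. Total RNA was sequenced from 4 groups with 2 libraries each, and the labels call their genotypes WT, MYC O/E (overexpression), Zab, and Zab with MYC O/E, written here as WT, MYC, Zab and Zab+MYC. In the series' design text Zab is written Zαβ, a usual name for the part of the editing enzyme ADAR1 that binds left-handed DNA and RNA. The labels do not give the vectors, promoters, durations or number of clones behind the 4 genotypes. Whether a group's libraries come from separate cultures is not said, so each p-value reflects only how these libraries vary, and that variation may be technical.

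Exon tags per library ranged from 686992 to 1326166, so a level of 1 CPM (the tags of a gene relative to all exon tags of a library, on the usual CPM scale, adjusted between libraries by TMM, a trimmed mean of expression ratios) rested on about 1 tag. MYC stood at 70.8 and 93.9 CPM in WT and at 1257 and 1321 in MYC. In Zab it was at 227 and 193 CPM, and the Zab+MYC libraries had 712 and 707. Tags of ADAR, the gene of ADAR1, stood at 258 and 267 CPM in WT and 251 and 236 in MYC. They reached 5947 and 6166 CPM in Zab, against 1075 and 1021 in Zab+MYC. The Zab+MYC libraries therefore held less MYC than the MYC libraries and fewer ADAR tags than the Zab libraries, and every comparison with Zab+MYC carries both differences. MYC was also higher in Zab than in WT, so Zab against WT carries a MYC difference too. Exon tags were 70.6% and 71.1% of the tags in the file header in WT and 76.1% and 75.9% in MYC. The shares were 60.6% and 60.9% in Zab, and Zab+MYC had 69.2% and 69.1%. This share moved with the groups, and its part in the results was not tested. The mesenchymal marker VIM was at 4972 to 7044 CPM in the group means, 6 of 7 mesenchymal markers passed the tag minimum, and summed blood markers reached at most 1.42 CPM in any library.

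Replication-dependent histone genes supply the bulk of new chromatin during S phase. They are clustered, mostly lack introns, and end their messages in a conserved stem-loop bound by SLBP instead of a poly(A) tail. Variant histone genes are expressed through the cell cycle, usually make polyadenylated messages, and place proteins such as H3.3, H2A.Z and macroH2A at chosen sites. Linker histones of the H1 family bind the DNA between nucleosomes and compact the fibre. The sources used here do not say whether the libraries were made from polyadenylated RNA, and the tags counted for a replication-dependent gene can come from either form of its message.

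The stem-loop is printed for 7 of the members with 10 or more tags, because it is the feature that sets replication-dependent messages apart. The 16-base stem-loop consensus was searched on the sense strand of protein-coding transcript models of GENCODE v29 (GRCh38), and capitals mark the match, shown with 5 bases on each side.
H2AC6: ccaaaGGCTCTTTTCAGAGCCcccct
H2BC21: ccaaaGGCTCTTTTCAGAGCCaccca
H3C10: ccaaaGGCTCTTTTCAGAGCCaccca
H2BC5: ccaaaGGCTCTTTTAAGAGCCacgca
H2BC4: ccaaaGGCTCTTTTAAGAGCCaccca
H4C8: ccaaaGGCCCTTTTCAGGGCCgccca
H2AX: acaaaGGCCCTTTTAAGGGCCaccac
The element was found in 26 of 62 replication-dependent members with a model, in 1 of 12 variant members (H2AX) and in 0.559% of all 19684 protein-coding genes. Many models stop at or near the coding end, so a missing match says only that the letters are not in the model. Several models run on past the element: 1114 bases more in H2AC6, 1729 in H2BC21 and 769 in H3C10, each with the poly(A) signal AATAAA in the last 60 bases.

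Promoters are printed for 5 members whose levels the results turn on, from RefSeq's GRCh38.p14 table, 5′ to 3′ on the gene's own strand, covering the bases before the annotated start. Capitals mark matches on either strand to CCAAT (bound by NF-Y), the octamer ATTTGCAT (bound by OCT1), the E-box CACGTG (bound by MYC with MAX) or TATAAA. No match of one motif overlapped a match of another in the member promoters.
H1-2 (chr6:26056471-26056720, minus strand): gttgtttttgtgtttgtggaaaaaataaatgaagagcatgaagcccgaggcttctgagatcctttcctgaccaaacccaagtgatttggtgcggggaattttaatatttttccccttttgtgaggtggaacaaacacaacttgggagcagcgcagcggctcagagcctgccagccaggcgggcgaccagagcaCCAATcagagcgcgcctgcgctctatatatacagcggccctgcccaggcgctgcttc
H2BC12 (chr6:27146859-27147108, minus strand): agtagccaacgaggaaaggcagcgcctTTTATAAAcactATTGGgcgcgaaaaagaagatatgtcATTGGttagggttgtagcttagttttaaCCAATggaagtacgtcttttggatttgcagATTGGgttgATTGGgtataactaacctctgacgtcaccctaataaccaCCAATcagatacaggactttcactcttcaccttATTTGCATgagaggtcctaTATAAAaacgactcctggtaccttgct
H2AC6 (chr6:26123922-26124171, plus strand): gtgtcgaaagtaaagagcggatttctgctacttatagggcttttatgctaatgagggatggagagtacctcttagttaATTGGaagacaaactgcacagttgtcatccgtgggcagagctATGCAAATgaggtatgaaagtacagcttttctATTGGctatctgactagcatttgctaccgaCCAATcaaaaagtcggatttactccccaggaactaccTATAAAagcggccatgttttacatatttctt
H2AZ2 (chr7:44848088-44848337, minus strand): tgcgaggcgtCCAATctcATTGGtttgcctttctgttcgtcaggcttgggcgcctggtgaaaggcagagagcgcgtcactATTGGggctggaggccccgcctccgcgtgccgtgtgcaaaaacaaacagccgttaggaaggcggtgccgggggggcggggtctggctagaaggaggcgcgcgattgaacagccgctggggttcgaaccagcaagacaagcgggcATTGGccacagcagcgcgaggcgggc
MACROH2A1 (chr5:135399232-135399481, minus strand): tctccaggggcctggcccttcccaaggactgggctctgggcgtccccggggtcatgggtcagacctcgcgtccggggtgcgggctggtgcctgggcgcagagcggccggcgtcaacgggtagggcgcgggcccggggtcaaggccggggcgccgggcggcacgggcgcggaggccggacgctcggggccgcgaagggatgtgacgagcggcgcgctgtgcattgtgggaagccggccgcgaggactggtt
In windows that also take in the 50 bases after the start, CCAAT was found in 19 of 20 replication-dependent promoters with 10 or more tags, in 6 of 9 variant promoters and in 35.7% of the 27305 promoters in the table. The octamer was found in 9 of the 20, in 1 of the 9 and in 1.8% of all promoters, and TATAAA in 15, in 4 and in 12%. The E-box CACGTG was found in 0 of the 20 and 0 of the 9, against 7.43% of all promoters. The 20 are not all separate stretches, so some motifs count more than once. H3C4 and H2AC7 have the same stretch, and H2AC18 and H2AC19 near-identical ones. Those of H2BC4 and H2AC6, and of H2BC21 and H2AC20, overlap on opposite strands. Promoters were in the table for 72 of the 78 members.

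Most histone genes gave few tags. Of the 66 replication-dependent genes, 23 were at 0 in all 8 libraries and 21 had 0.5 to 9.5 tags in all, with at most 3 tags in any library. Among variants, H1-7 and H1-8 were at 0. By family, 3 of 6 replication-dependent H1 genes, 6 of 16 H2A, 7 of 17 H2B, 4 of 13 H3 and 2 of 14 H4 genes reached 10 tags. H2AC18 and H2AC19 held identical tags in every library, since each annotated transcript lies at both loci, so they were counted as 1 gene, which leaves 21 replication-dependent genes. Only 8 replication-dependent genes and 8 of the 9 variants had 100 or more tags. Near-identical copies within the H2A, H2B, H3 and H4 families can share reads, so the split between them is uncertain. The H3C4 model (chr6:26197012-26199521, minus strand, hg19) covers H2AC7 on the same strand, and their tags cannot be told apart.

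Per kilobase of counted transcript, H1-2 was the most abundant member in WT at 1965 CPM per kb, followed by H2AZ1 at 641, H1-10 at 416, H2AX at 332, H3-3A at 320, H2AZ2 at 269, H3-3B at 262 and H2BC12 at 251. H1-2 encodes the linker histone H1.2 and is counted on a single exon at chr6:26055968-26056699 (minus strand, hg19). In MYC the order changed: H2AZ1 came first at 602 CPM per kb and H1-2 followed at 340, then H3-3B at 280, H3-3A at 237 and MACROH2A1 at 225. In Zab, H1-2 (1058) again led H2AZ1 (426), as it did in Zab+MYC with 621 against 486. H2AZ1 encodes a form of H2A.Z, the variant common at promoters.

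**Figure D1:**
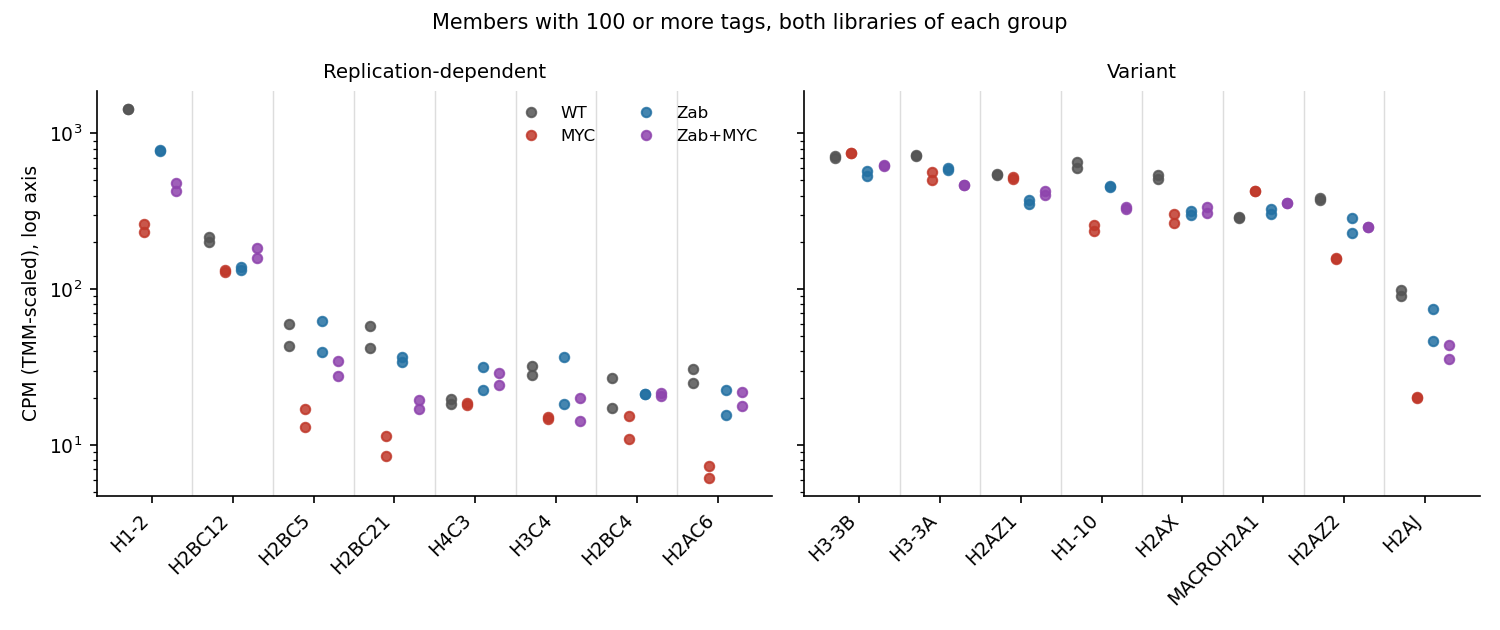
Level of each member described here with 100 or more tags, in CPM on a log axis, 1 point per library, replication-dependent genes at left and variants at right, coloured by group. In H1-2, H2BC21, H2BC5, H1-10 and H2AJ the MYC points lie below all other groups, and in MACROH2A1 above them.

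With MYC overexpression more histone genes fell than rose, in both classes. Among the 21 replication-dependent genes, 7 fell, 1 rose and 13 were not called, with a median log2 change of -0.67. Among the 9 variants 6 fell and 1 rose, with a median of -0.88. Over all 12661 genes tested, 48.2% were called (limma, two-sided, Benjamini-Hochberg adjusted p under 0.05), 23.1% higher and 25.0% lower, and the median was -0.06. In the variant class, therefore, the share of members called lower (66.7%) stood above the 25.0% of all genes. In the replication-dependent class it was 33.3%, nearer to the 25.0%, and the calls of H3C4 and H3C10 behind it were lost in some settings. With edgeR 6 of the 21 were called lower, beside 3360 of the 12661 genes. The replication-dependent share called in either direction (38.1%) stood below the 48.2%. Scaling by library totals moved the median of all genes by -0.16 and the share of higher genes among those called from 48.0% to 37.6%, and it left the count of risen members at 1 in each class, with 10 replication-dependent genes and 7 variants lower. Fold changes here and below are on the scale of log2(CPM + 2). In bulk RNA, fewer cells in S phase and less histone message per cell cannot be told apart.

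H1-2 showed the widest gap in CPM between WT and MYC. It stood at 1436 and 1437 CPM in WT and at 234 and 263 in MYC. The Zab libraries had 769 and 779 CPM, those of Zab+MYC 478 and 431. The 4 groups did not overlap, with WT highest and MYC lowest. The fall from WT to MYC was 5.74-fold (log2 -2.52 ± 0.07 SE, adjusted p = 7.7e-36). The change ranged from -2.70 to -2.41 over all alternative settings.

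The other replication-dependent genes that fell with MYC encode H2B, H2A and H3. H2BC21, an H2B gene at chr1:149856010-149858232 (minus strand, hg19) counted on a long transcript of 2222 bases, was at 41.9 and 58.2 CPM in WT and 8.5 and 11.4 in MYC. Its libraries did not overlap and the fall was 4.33-fold (log2 -2.11 ± 0.29 SE, adjusted p = 1.3e-08). H2AC6, an H2A gene, went from 25.2 and 30.9 CPM to 6.2 and 7.3, a 3.43-fold fall (adjusted p = 1.2e-05). H2BC5 fell 3.13-fold, from 60.3 and 43.0 CPM to 17.1 and 13.0 (adjusted p = 3.6e-07). H2BC12 fell 1.59-fold, from 217 and 202 CPM to 132 and 129 (adjusted p = 4.5e-06). These 4 calls and that of H1-2 held in every alternative setting. The span of H2BC12 covers H4C9 on the other strand, and no source used here says whether the counting used strand.

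Calls on thinner data were less steady. With MYC, DESeq2 did not call H3C4 (adjusted p = 0.13), H3C10 (0.31) or H2AC12 (0.28). With edgeR, H3C10 (adjusted p = 0.066) and H2AC12 (0.051) were not called. H3C4 fell 1.90-fold (32.0 and 28.3 CPM in WT, 15.2 and 14.6 in MYC, adjusted p = 0.013), and lost the call without WT replicate 1 (adjusted p = 0.08) or MYC replicate 2 (adjusted p = 0.063). H3C10 had 10.5 tags in WT and 3.5 in MYC, a ratio of 0.227 (95% counting interval 0.0624 to 0.945). Its call (adjusted p = 0.023) was lost without WT replicate 1 (adjusted p = 0.097), WT replicate 2 (0.082) or MYC replicate 1 (0.41). H2AC12, the gene that rose, had 1 tag in WT and 10 in MYC, a ratio of 6.81 with a counting interval of 0.969 to 296. That call (adjusted p = 0.032) was lost without either MYC library (0.089 for replicate 1 and 0.17 for replicate 2) or without WT replicate 1 (0.21). Without WT replicate 1, 5 replication-dependent genes were called, all lower, in place of 8. H4C3, an H4 gene, was at 19.7 and 18.4 CPM in WT and 18 and 18.7 in MYC, with overlapping libraries (log2 -0.05, adjusted p = 0.92). H2BC4 was at 27.1 and 17.3 CPM in WT and 10.9 and 15.4 in MYC (log2 -0.66, adjusted p = 0.086), and passed the threshold with library totals (log2 -0.82, adjusted p = 0.029), on the deposited scale (log2 -0.77, adjusted p = 0.041) and without WT replicate 2 (log2 -0.94, adjusted p = 0.045). Of the 13 replication-dependent genes with under 100 tags, 11 were not called with MYC. H2BC11, H2BC15, H2BC14, H2AC7, H1-1, H3C2, H3C1, H2AC18, H4C8 and H2AC20 had 13 to 47 tags each over the 8 libraries. The limma fit with TMM scaling and all libraries called none of them in the 5 comparisons. Under other scalings some of them were called. With library totals, 10 replication-dependent genes were called lower with MYC in place of 7.

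Variants moved in both directions with MYC. H1-10, the linker variant H1.10, was at 603 and 657 CPM in WT and 238 and 259 in MYC, a 2.52-fold fall (log2 -1.33 ± 0.08 SE, adjusted p = 1.5e-20). The gap was far wider than the spread within a group. The fold was smaller than that of H1-2, but the difference between genes was not tested.

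Among the H2A variants outside macroH2A, H2AJ had the largest fold change with MYC. It stood at 91.1 and 99.6 CPM in WT and 19.9 and 20.3 in MYC, a 4.40-fold fall (log2 -2.14 ± 0.22 SE, adjusted p = 3.6e-12). H2AZ2, which encodes the other H2A.Z protein, fell 2.41-fold, from 375 and 388 CPM to 159 and 156 (adjusted p = 6.3e-16). H2AX, whose phosphorylated protein marks DNA breaks, fell 1.84-fold, from 512 and 544 CPM to 267 and 306 (adjusted p = 1.4e-12). H2AZ1 was at 553 and 545 CPM in WT and 508 and 523 in MYC (log2 -0.09, adjusted p = 0.34). That value passed the threshold when libraries were scaled by their totals (log2 -0.27, adjusted p = 0.0015) or left on the deposited scale (log2 -0.20, adjusted p = 0.02).

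The macroH2A genes, which encode large variants found on silent chromatin, went opposite ways. MACROH2A1 was at 290 and 286 CPM in WT and 427 and 429 in MYC, a 1.48-fold rise (log2 0.57 ± 0.09 SE, adjusted p = 1.2e-07). It was the single variant that rose, and both MYC libraries lay above all others. The transcript kept for it differed between libraries, with 2 in use. MACROH2A2 had 44.5 tags in WT and 6 in MYC, and stood at 34.5 and 17.3 CPM against 1.9 and 3.2. The ratio of its tags was 0.0918 (95% counting interval 0.0323 to 0.219), and the fitted fall was 5.86-fold (adjusted p = 7.7e-07). Its span overlaps AIFM2 on the other strand. Of the H3.3 genes, H3-3A fell 1.35-fold, from 718 and 725 CPM to 502 and 568 (adjusted p = 7.8e-07), and H3-3B was at 720 and 697 CPM against 755 and 755 (log2 0.09, adjusted p = 0.25).

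**Figure D2:**
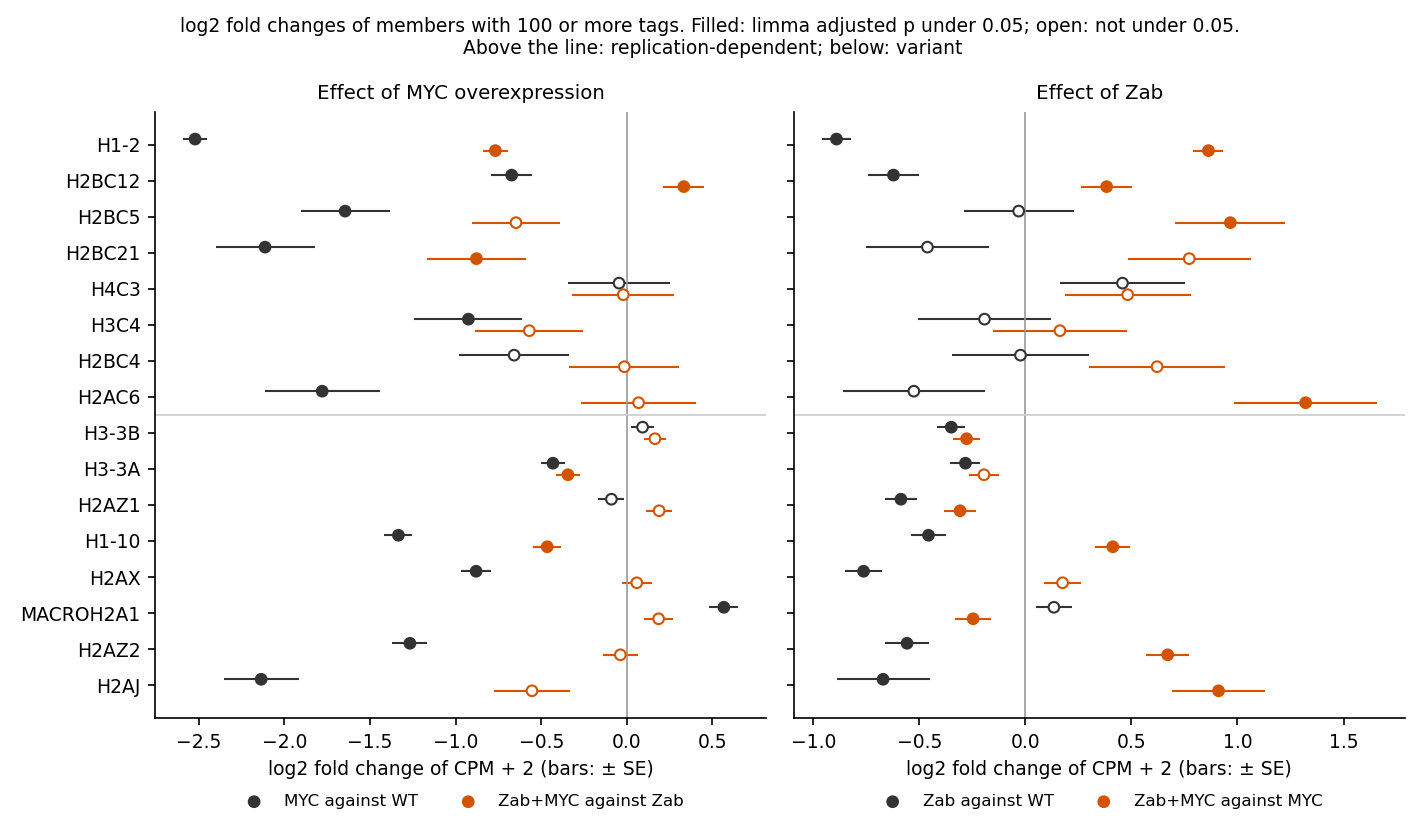
log2 fold change of CPM + 2 with its SE for the members described here with 100 or more tags, MYC effect at left and Zab effect at right, each without the other factor (dark) and with it (orange); filled points passed the test. At left most dark points lie below 0 and the orange ones nearer to 0, and at right points such as those of H1-2, H1-10 and H2AZ2 change sides.

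With Zab alone histone genes were also lower than in WT, and most of those called were variants. The MYC message was higher in Zab than in WT too, as given above, and its part in these differences was not tested. Of the replication-dependent genes 2 of 21 fell and 0 rose (median log2 -0.44), and of the variants 7 of 9 fell and 0 rose (median -0.56), where 18.6% of all genes were called, 10.1% higher and 8.5% lower, with a median of -0.00095. The replication-dependent share called lower (9.52%) was near that background and the variant share (77.8%) stood above it. The deposited values, which carry 1 factor per library of unstated origin, move the median of all genes by -0.49 in this comparison and the share of higher genes among those called from 54.4% to 5.15%. On that scale 5 of the 21 replication-dependent genes and all 9 variants were called lower, beside 4973 of the 12661 genes tested. The replication-dependent share called lower thus stood below that of all genes there.

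The comparison shares its WT libraries with that of MYC against WT. H1-2 dropped 1.85-fold, from 1436 and 1437 CPM to 769 and 779 (log2 -0.89 ± 0.07 SE, adjusted p = 3.2e-15). H2BC12 dropped 1.54-fold, to 133 and 138 CPM (log2 -0.62 ± 0.12 SE, adjusted p = 7.5e-05). H2BC5 stood at 62.5 and 39.6 CPM in Zab, overlapping WT (log2 -0.03, adjusted p = 0.96), and H2BC21 stood at 34.1 and 36.5 CPM (log2 -0.46, adjusted p = 0.3).

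H2AX was the variant with the largest fall past the threshold with Zab, to 318 and 302 CPM from 512 and 544, a 1.70-fold change (log2 -0.76 ± 0.09 SE, adjusted p = 7.5e-10). H2AZ1 fell 1.5-fold, to 354 and 376 CPM (adjusted p = 1.9e-08), and H2AZ2 1.47-fold, to 288 and 231 CPM (adjusted p = 2.9e-05). H1-10 fell 1.37-fold (adjusted p = 2e-05), H3-3B 1.27-fold (adjusted p = 4.5e-05) and H3-3A 1.22-fold (adjusted p = 0.0023). For each of these 6 genes the Zab libraries lay below the WT libraries, but how many of all genes separated in this way was not counted. H2AJ fell 1.59-fold (46.9 and 74.3 CPM in Zab, adjusted p = 0.024), and lost the call without WT replicate 1 (adjusted p = 0.072), WT replicate 2 (0.14) or Zab replicate 1 (0.41). The H2AJ call was also lost with DESeq2 (adjusted p = 0.21) and with no tag minimum (0.053). MACROH2A1 was at 328 and 306 CPM (log2 0.13, adjusted p = 0.3), and its direction turned on the deposited scale (log2 -0.42, adjusted p = 3.2e-05).

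In cells with overexpressed MYC, those with Zab held more message of several histone genes and less of a few variants. The comparison shares its MYC libraries with MYC against WT. In Zab+MYC against MYC, 4 of 21 replication-dependent genes rose and 0 fell (median log2 0.06), and of the variants 3 rose and 3 fell (median 0.17). Over all genes 15.0% were called, 8.6% higher and 6.41% lower, with a median of 0.01. Scaling matters here too: among all called genes the share that was higher went from 57.3% to 16.9% on the deposited scale, which moves the median by -0.26, and to 71.4% with library totals. On the deposited scale the class medians were -0.11 and -0.13, with 3 replication-dependent genes higher, and 2 variants higher and 4 lower. Of all 12661 genes 579 were called higher and 2848 lower on that scale. The MYC message itself was lower in Zab+MYC by 1.81-fold (adjusted p = 4.5e-10), and its part in these differences was not tested.

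H1-2 was 1.82-fold higher in Zab+MYC (478 and 431 CPM) than in MYC (234 and 263; log2 0.86 ± 0.07 SE, adjusted p = 2.5e-14). H2AZ2 was 1.59-fold higher, at 252 and 251 CPM against 159 and 156 (adjusted p = 1.4e-06), and H1-10 was 1.33-fold higher, at 327 and 335 CPM against 238 and 259 (adjusted p = 0.00018). The libraries of these 3 genes did not overlap, though the share of all genes without overlap was not counted. The calls of H1-2 and H2AZ2 held in every alternative setting. H1-10 lost its call on the deposited scale (log2 0.11, adjusted p = 0.35).

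The other rises rested on fewer tags. DESeq2 did not call those of H2BC5 (adjusted p = 0.1), H2AJ (0.079) and H2BC12 (0.21), and gave no adjusted p for H2AC6. H2AC6 was 2.50-fold higher, at 22.0 and 17.8 CPM (adjusted p = 0.0039; 0.066 without Zab+MYC replicate 1). H2BC5 was 1.95-fold higher, at 34.8 and 27.7 CPM (adjusted p = 0.0066; 0.11 without MYC replicate 2 and 0.12 without Zab+MYC replicate 1). H2AJ was 1.88-fold higher, at 44.1 and 35.5 CPM (adjusted p = 0.0023; 0.074 without Zab+MYC replicate 1). H2BC12 was 1.30-fold higher, at 183 and 160 CPM (adjusted p = 0.022), and its call was lost without MYC replicate 1 (0.14), MYC replicate 2 (0.19) or Zab+MYC replicate 1 (0.21), and on the deposited scale (log2 0.08, adjusted p = 0.68). Without Zab+MYC replicate 1, 1 replication-dependent gene was called higher in place of 4, and without MYC replicate 2 there were 2.

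Of the variants that fell between MYC and Zab+MYC, H2AZ1 went down 1.24-fold, to 427 and 405 CPM (adjusted p = 0.0029), and H3-3B went down 1.21-fold, to 621 and 624 CPM (adjusted p = 0.0018). MACROH2A1 went down 1.19-fold, to 360 and 360 CPM (adjusted p = 0.039). That last call was lost with library totals (log2 -0.17, adjusted p = 0.19), with DESeq2 (0.11) and without any one of the 4 libraries: MYC replicate 1 (0.099), MYC replicate 2 (0.11), Zab+MYC replicate 1 (0.13) or Zab+MYC replicate 2 (0.074). H3-3A was at 465 and 467 CPM, with an adjusted p of 0.051, and passed the threshold in several other settings, among them RLE scaling (adjusted p = 0.013) and the fit without WT replicate 2 (adjusted p = 0.015).

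MYC was also compared in cells that carried Zab, where it lowered H1-2, H1-10 and few other members. In Zab+MYC against Zab, 1 replication-dependent gene of 21 rose and 3 fell (median log2 -0.47), and of the 9 variants 0 rose and 2 fell (median -0.04). Among all genes 20.1% were called, 11.2% higher and 8.9% lower. On the deposited scale, which moves the median of all genes by 0.12 and the share of higher genes among those called from 55.7% to 73.4%, 3 variants rose and 2 fell, and the variant median turned to 0.10. H1-2 fell 1.70-fold (log2 -0.77 ± 0.07 SE, adjusted p = 8.2e-13), H1-10 1.38-fold (adjusted p = 1.6e-05) and H3-3A 1.27-fold (adjusted p = 0.00019). These 3 calls held in every alternative setting.

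The remaining calls in that comparison were thin. H2BC21 fell 1.84-fold (adjusted p = 0.023), and its call was lost on the deposited scale (0.056) and without Zab replicate 1 (0.069), Zab replicate 2 (0.1), Zab+MYC replicate 1 (0.058) or Zab+MYC replicate 2 (0.13). H2BC12 rose 1.26-fold (adjusted p = 0.041) and was lost with library totals (0.088) and without any of 5 libraries, MYC replicate 1 (0.053), MYC replicate 2 (0.053), Zab replicate 1 (0.16), Zab replicate 2 (0.08) and Zab+MYC replicate 1 (0.29). DESeq2 called neither (adjusted p = 0.19 and 0.31). The H2BC12 call was also lost with no tag minimum (adjusted p = 0.051) and in a fit of only the 4 libraries compared (0.059). H1-4, a linker gene with 13 tags in Zab and 3 in Zab+MYC, had a tag ratio of 0.197 (95% counting interval 0.0360 to 0.717). Its call (adjusted p = 0.02) was lost without Zab replicate 1 (0.2), Zab+MYC replicate 1 (0.062) or Zab+MYC replicate 2 (0.12). Without either Zab+MYC replicate, 2 replication-dependent genes were called in place of 4.

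Whether the MYC effect differed with Zab was examined by the interaction, the MYC effect in Zab cells minus that in cells without Zab. It was called for 6 of 21 replication-dependent genes, 5 of them higher, and for 6 of 9 variants, 5 of them higher. Higher means a MYC effect that was less negative with Zab or turned positive. Among the genes called higher, the effect with Zab was positive for H2BC12, H2AC6 and H2AX (log2 0.33, 0.07 and 0.06) and negative for the rest. Of all genes 21.1% were called, 10.7% higher and 10.4% lower. The class medians were 0.40 and 0.87, beside 0.04 for all genes. The deposited scale moves that last median by 0.22 and library totals by 0.12, and the share of higher genes among those called goes from 50.6% to 73.0% and 63.0%. H1-2 had an interaction of 1.75 ± 0.10 on the log2 scale (adjusted p = 8.5e-21). H2AZ2 followed with 1.23 ± 0.14 (adjusted p = 1.1e-09), H2AX with 0.94 ± 0.12 (adjusted p = 3e-08), H1-10 with 0.87 ± 0.12 (adjusted p = 3.4e-08), H2BC12 with 1.01 ± 0.17 (adjusted p = 6.6e-06) and H2AJ with 1.58 ± 0.31 (adjusted p = 9.4e-05). These 6 calls held in every alternative setting. The MYC level also differed less between Zab+MYC and Zab (3.36-fold) than between MYC and WT (15.4-fold). ADAR tags were fewer in Zab+MYC than in Zab, as given above. The part of either difference in the interaction was not tested, and this design cannot separate them from an effect of Zab.

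H2AC6 had an interaction of 1.85 ± 0.48 (adjusted p = 0.0028), held in all settings but DESeq2 (adjusted p = 0.071). Other interactions rested on few libraries. H2BC21 (1.23, adjusted p = 0.023) was not called without WT replicate 2 (0.15), MYC replicate 1 (0.11), Zab replicate 1 (0.06) or Zab+MYC replicate 1 (0.074). H2BC5 (1.0, adjusted p = 0.044) was not called without WT replicate 1 (0.23), MYC replicate 2 (0.18), Zab replicate 2 (0.25), Zab+MYC replicate 1 (0.18) or Zab+MYC replicate 2 (0.061). MACROH2A2 (1.81, adjusted p = 0.021) lost its call without WT replicate 1 (0.18), MYC replicate 1 (0.085), Zab replicate 2 (0.067) or Zab+MYC replicate 1 (0.12). In the other direction, MACROH2A1 (-0.38, adjusted p = 0.017) was lost with library totals (log2 -0.25, adjusted p = 0.13), on the deposited scale (log2 -0.13, adjusted p = 0.47), with DESeq2 (adjusted p = 0.12) and without Zab replicate 1 (0.064). H1-4 (-1.92, adjusted p = 0.035) was lost on the deposited scale (0.059) and without WT replicate 1 (0.052), WT replicate 2 (0.1), MYC replicate 2 (0.19), Zab replicate 1 (0.15), Zab+MYC replicate 1 (0.06) or Zab+MYC replicate 2 (0.089). With no tag minimum the interaction calls of H2BC5 (adjusted p = 0.095), MACROH2A2 (0.065) and H1-4 (0.053) were also lost, as were those of H2BC5 (0.25) and H2BC21 (0.19) with DESeq2. Without Zab+MYC replicate 1, 3 replication-dependent genes were called in place of 6.

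Summed over each class and taken as a ratio to WT, replication-dependent message differed more than variant message did, in each other group. Most of the replication-dependent sum in WT was H1-2. In CPM, the variant sum differed more from WT in Zab. The replication-dependent sum was 1936 and 1917 CPM in WT and 492 and 530 in MYC. It was 1145 and 1178 CPM in Zab, and Zab+MYC had 858 and 749. The variant sum was 3896 and 3958 CPM in WT and 2877 and 3019 in MYC. It was 2970 and 2892 CPM in Zab, and Zab+MYC had 2812 and 2823. The first sum separated all 4 groups, while in the second the MYC and Zab libraries overlapped. Replication-dependent genes made up 32.9% ± 0.40 (SD, n = 2) of the CPM of both classes in WT and 14.8% ± 0.23 in MYC, with 28.4% ± 0.79 in Zab and 22.2% ± 1.70 in Zab+MYC. H1-2 alone gave 74.6% of the replication-dependent sum in WT and 48.6% in MYC. Without H1-2 the sum was 490 ± 14.1 CPM in WT, 262 ± 6.48 in MYC and 388 ± 16.1 in Zab, with 349 ± 43.7 in Zab+MYC, so the ratio of MYC to WT went from 0.265 to 0.536, beside 0.751 for the variants. The ratio of Zab to WT went from 0.603 to 0.792, beside 0.746 for the variants, so without H1-2 the order of both classes turned in that comparison. In Zab+MYC both classes then stood about equally far below WT in ratio (349 beside 490 CPM, and 2818 beside 3927 for the variants). Without H1-2 the Zab libraries (377 and 399 CPM) and the Zab+MYC libraries (380 and 318 CPM) also overlapped.

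**Figure D3:**
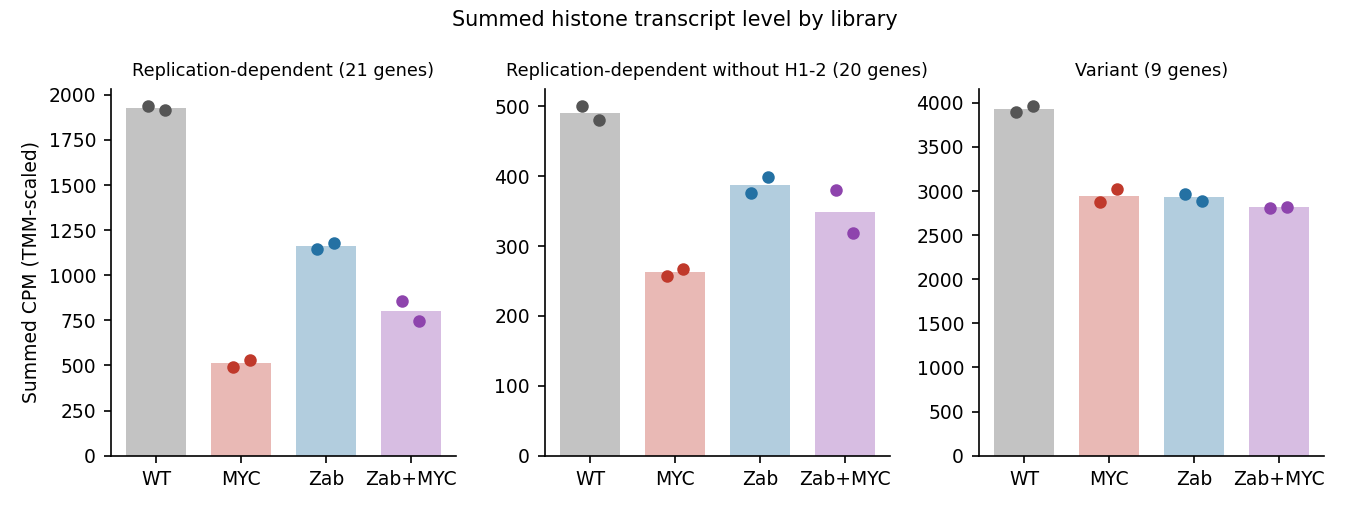
Summed CPM per library (points) and group mean (bars from 0) for the replication-dependent genes, the same without H1-2, and the variants. WT is highest in each panel and MYC is lowest in the first 2 panels, where the sum goes from 1926 to 511 CPM and, without H1-2, from 490 to 262.

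Shares between related genes were computed from levels per kilobase. H1-2 made up 82.5% ± 0.87 (SD, n = 2) of the message of H1-2 and H1-10 in WT and 67.4% ± 0.49 in MYC, with 77.8% ± 0.24 in Zab and 73.9% ± 1.75 in Zab+MYC. H2AZ1 gave 70.5% ± 0.68 of H2A.Z message in WT and 84.5% ± 0.47 in MYC, with 70.0% ± 4.16 in Zab and 73.3% ± 0.64 in Zab+MYC. H3-3B gave 45.1% ± 0.73 of H3.3 message in WT and 54.2% ± 2.16 in MYC, with 43.9% ± 1.49 in Zab and 52.7% ± 0.04 in Zab+MYC. MACROH2A1 gave 91.9% ± 3.45 of macroH2A message in WT and 99.4% ± 0.22 in MYC. In all 4 sets of genes the MYC and WT libraries did not overlap, and no such shares were computed for genes outside these sets. The H3.3 shares lay close together in both groups with overexpressed MYC, and the H2A.Z share in Zab+MYC lay nearer to WT than to MYC.

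**Figure D4:**
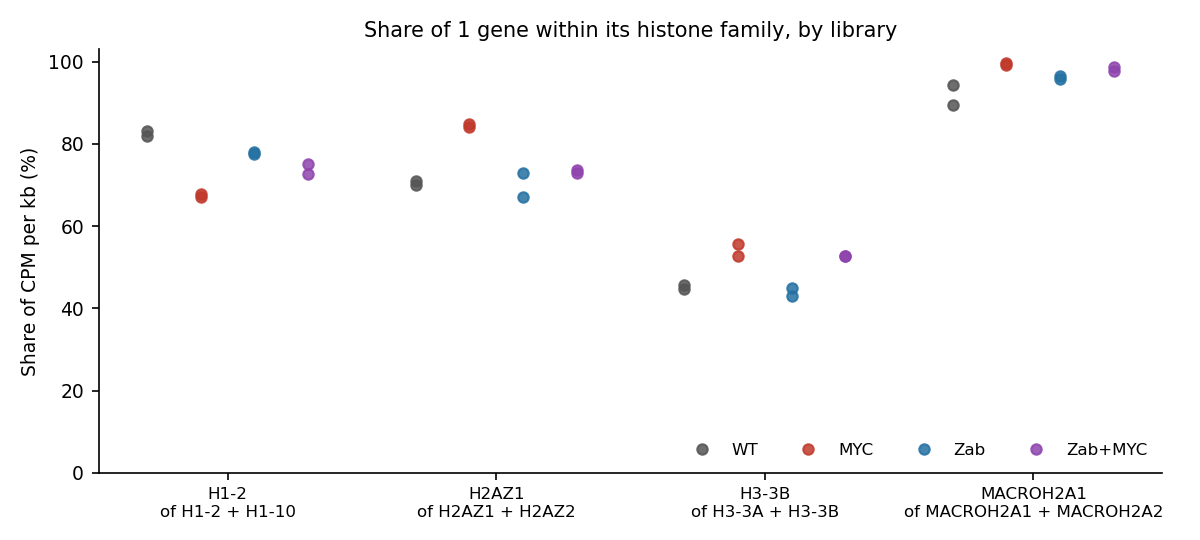
Share of 1 gene in the CPM per kb of its set, in percent, 1 point per library, coloured by group. MYC libraries lie apart from WT in all 4 sets, from 82.5% to 67.4% on average for H1-2 and from 70.5% to 84.5% for H2AZ1.

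Histone genes are often arranged as divergent H2A and H2B pairs, and 3 such pairs had both genes at 10 or more tags. H2BC4 and H2AC6 start 241 bases apart on chromosome 6 (26124132 and 26124373, hg19), and the H2AC6 promoter printed above lies between them with its octamer and CCAAT boxes. H2AC6 fell 3.43-fold with MYC and rose 2.50-fold between MYC and Zab+MYC, while H2BC4 (log2 -0.66 and 0.62, SE 0.32) was not called in any comparison under TMM scaling with all libraries, though it was called lower with MYC in the 3 settings given above. H2BC21 and H2AC20 start 293 bases apart on chromosome 1. H2BC21 fell with MYC and H2AC20, with 13 tags in all, was not called (log2 -0.14). In the third pair, H2BC12 and H2AC12 start 224 bases apart, and with MYC the first fell and the second was the gene that rose from 1 tag. Differences between the genes of a pair were not tested.

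The machinery around histone genes was read from lists of 21 genes for their transcription and message processing, 14 for replication-coupled chaperones, 17 for variant deposition and 45 for DNA replication. The shares of all genes called higher and lower, against which their counts stand, were 23.1% and 25.0% with MYC, 10.1% and 8.5% with Zab, 8.6% and 6.41% in Zab+MYC against MYC, and 11.2% and 8.9% in Zab+MYC against Zab. With MYC, 8 of the 21 transcription and processing genes (38.1%) rose and 0 fell (median log2 0.28). SRRT, which links capped RNA to its processing, rose 2.26-fold (adjusted p = 3.1e-11), LSM10 of the U7 particle 2.20-fold (adjusted p = 7.1e-09), the cleavage factor CSTF2 2.35-fold (adjusted p = 1.6e-08) and UPF1, which acts in histone message decay, 1.73-fold (adjusted p = 4e-06). SLBP, which binds the stem-loops printed above, was at 57.2 and 69.2 CPM in WT and 104 and 76.0 in MYC. Zab libraries had 40.5 and 43.2 CPM, those of Zab+MYC 58.3 and 66.8. It rose with MYC (log2 0.49, adjusted p = 0.029), fell with Zab (log2 -0.57, adjusted p = 0.027) and rose with MYC in Zab cells (log2 0.56, adjusted p = 0.03). NPAT, the activator of histone gene transcription, was at 56.6 and 43.0 CPM in WT and 57.9 and 52.4 in MYC (adjusted p = 0.57). In Zab+MYC against Zab 7 of this list (33.3%) rose and 0 fell (median 0.42), and with Zab alone 0 rose and 2 (9.52%) fell.

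Of the 14 replication-coupled chaperones 5 (35.7%) rose and 2 (14.3%) fell with MYC, beside 23.1% and 25.0% of all genes (median 0.05). ASF1B, which hands H3 and H4 to the replication fork, fell from 144 and 133 CPM to 25.6 and 25.6 (5.08-fold, adjusted p = 3.4e-17), and stood at 68.6 and 69.6 CPM in Zab+MYC. The importin IPO4 rose 2.67-fold (adjusted p = 2.6e-20), TONSL 2.32-fold (adjusted p = 1.4e-15) and NAP1L1 1.34-fold (adjusted p = 5.5e-08). With Zab alone 1 (7.14%) rose and 3 (21.4%) fell, in Zab+MYC against MYC 1 (7.14%) rose and 4 (28.6%) fell, and against Zab 4 (28.6%) rose and 0 fell.

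Of the 17 variant deposition genes 6 (35.3%) rose and 4 (23.5%) fell with MYC (median 0.23), the latter share near the 25.0% of all genes. The remodeller subunits RUVBL1 and RUVBL2 rose 2.52-fold (adjusted p = 1.2e-21) and 2.10-fold (adjusted p = 3.1e-17). ATRX, which places H3.3 at repeats, fell 2.07-fold (adjusted p = 1.9e-07), and CABIN1 of the HIRA complex fell 1.73-fold (adjusted p = 1.7e-05). Zab alone gave 5 higher (29.4%) and 3 lower (17.6%), Zab+MYC against MYC 0 and 1 (5.88%), and against Zab 2 (11.8%) and 3 (17.6%).

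Of the 45 replication genes, 12 (26.7%) rose and 11 (24.4%) fell with MYC (median 0.11), shares near the 23.1% and 25.0% of all genes. MCM3 of the replicative helicase rose 2.03-fold (adjusted p = 5.1e-13), TIPIN 3.32-fold (adjusted p = 6.3e-10) and POLD2 1.56-fold (adjusted p = 1.1e-10), while RRM2, the small subunit of ribonucleotide reductase, fell 1.21-fold (adjusted p = 0.0032). With Zab 0 rose and 10 (22.2%) fell, beside 8.5% of all genes (median -0.23), RRM2 among them (1.61-fold, adjusted p = 8.5e-10). In Zab+MYC against MYC 3 (6.67%) rose and 4 (8.89%) fell, and against Zab 13 (28.9%) rose, beside 11.2% of all genes, and 0 fell (median 0.23).

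Single-exon counting was set beside these results, since 19 of 22 replication-dependent genes and 4 of the 10 variants with 10 or more tags were counted on 1 exon. Among 239 tested genes outside the set that were also counted on 1 exon, 41 (17.2%) rose and 62 (25.9%) fell with MYC (median -0.23), beside 23.1% and 25.0% of all genes. Of the same genes 17 rose and 28 fell with Zab, 14 rose and 6 fell between MYC and Zab+MYC, 17 rose and 21 fell between Zab and Zab+MYC, and 28 interactions were higher and 13 lower. The share of those genes that fell with MYC was near that of all genes, and their median was lower (-0.23 beside -0.06). The part of gene structure in the results was not tested. Mesenchymal markers also moved: 5 of 6 tested fell with MYC (median -1.64), COL1A1 by 9.35-fold (adjusted p = 2.1e-37), SPARC by 4.65-fold (adjusted p = 1.8e-36), FN1 by 8.24-fold and VIM by 1.42-fold. Their summed level was 10419 and 10384 CPM in WT and 5441 and 5646 in MYC. It was 8592 and 9025 CPM in Zab, Zab+MYC had 7790 and 7861, and the markers' part in the histone results was not tested.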

How the data were processed

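RNA of U2OS cells was extracted with Trizol and sequenced after preparation with a kit from Abclonal, per the labels' protocols. The submitters' processing notes list Trim Galore 0.6.6, STAR, HOMER 4.11.1 and the builds hg19 and dm6. Per the file headers, the deposited values were made with HOMER's analyzeRepeats on hg19 RefSeq coding genes, counting tags in exons and keeping 1 transcript per symbol, and the folder names in them mention a spike-in. The deposited unit is a signal: exon tags times 1 factor per library, whose origin none of the sources used here gives. All deposited values were whole multiples (100%, within 0.1 step) of 1 step per library, and tags were recovered by taking 2 steps as 1 tag, an assumption.

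Tags were scaled by TMM (edgeR 4.0.16), and log2(CPM + 2) of the 12661 genes with 10 or more tags over 8 libraries was fitted with limma 3.58.1 (with a mean-variance trend) in R 4.3.3, with all 8 libraries, 4 residual degrees of freedom and Benjamini-Hochberg adjustment over all genes tested. Tests are two-sided. Counting intervals are exact, at 95%, and cover counting error only. They use tags rounded to whole numbers, while the ratios beside them use unrounded tags. Both are relative to exon tag totals without TMM. The fit was tested on simulated data. Members with 100 or more tags or called in any comparison are named with values (1 variant gene is not reported here and is left out of all class counts, medians and sums), and from each list up to 4 genes with the lowest adjusted p, plus SLBP and NPAT. The members and lists were chosen with earlier results of these data known. Alternatives covered scaling, filters, pseudocount, edgeR, DESeq2 1.42.0, the libraries fitted, a replicate block and leaving out each library. Python 3.11.15 and pandas 2.3.3 were used for tables.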

Additional observations from a re-analysis of the deposited data

Results flagged for a closer look

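The interaction test (limma, adjusted p under 0.05) called 12 histone genes, for a MYC effect that differed between cells with and without Zab. Only the calls of H1-2, H2BC12, H1-10, H2AX, H2AZ2 and H2AJ held in every alternative setting. Each of the others was lost in some setting, as given above. The log2 difference, with Zab minus without, was 1.75 for H1-2, 1.01 for H2BC12, 1.0 for H2BC5, 1.23 for H2BC21 and 1.85 for H2AC6. Among linker histones outside H1-2 it was 0.87 for H1-10 and -1.92 for H1-4, the last on 30.5 tags in all. Among core variants it was 0.94 for H2AX, 1.23 for H2AZ2, 1.58 for H2AJ, 1.81 for MACROH2A2 and -0.38 for MACROH2A1. Of the 30 members described, with H2AC18 and H2AC19 as 1, 10 were called higher and 2 lower, beside 10.7% and 10.4% of all genes. MYC was at 711.8 and 707.1 CPM in Zab+MYC and 1257 and 1321 in MYC, so both arms of the contrast also differ in MYC level. ADAR tags were fewer in Zab+MYC than in Zab, as given above. The part of either difference in the interaction was not tested.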

How the results depend on the processing

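The limits are depth and replication. At 686992 to 1326166 exon tags a library, 46 of 78 members had under 10 tags. Under TMM scaling with all libraries, 11 of the 13 replication-dependent genes with 10 or more but under 100 tags were not called with MYC. With 2 libraries per group a call can turn on 1 of them. Among 20 named members and 5 comparisons, 52 calls were made. In 1935 repeats under other settings 1807 kept their side of the threshold, 85 lost a call, 42 gained one and 1 changed direction. Of the 52 calls 33 held in every setting that gave a value, and DESeq2 gave no adjusted p for 25 of 100. The change of direction was MACROH2A1 in Zab against WT on the deposited scale (log2 -0.42).

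Counts of called genes moved most with DESeq2 and with the deposited scale; the cause was not tested. With DESeq2, 3857, 832, 666, 889 and 1050 of all genes were called for MYC against WT, Zab against WT, Zab+MYC against MYC, Zab+MYC against Zab and the interaction, in place of 6100, 2360, 1900, 2545 and 2674, and edgeR on the recovered tags called 6446, 2251, 2317, 2430 and 2702. DESeq2 called 5 replication-dependent genes for MYC against WT in place of 8, 1 in each comparison of Zab+MYC in place of 4, and 2 interactions in place of 6. On the deposited scale 5243 and 3427 genes were called for Zab against WT and Zab+MYC against MYC, 5 replication-dependent genes for the former, and 5 variants in place of 2 for Zab+MYC against Zab. Leaving out each library in turn gave 5 to 9 replication-dependent genes for MYC against WT, 1 to 4 for Zab+MYC against MYC, 2 to 4 for Zab+MYC against Zab and 3 to 5 interactions. Over all genes it gave 1061 to 2075 for Zab+MYC against MYC and 1614 to 2621 for Zab+MYC against Zab. The group left with 1 library was assumed to vary like the others.

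Summed levels kept the order of WT, Zab, Zab+MYC and MYC for the replication-dependent class under every scaling. In that order the sums were 2044, 1187, 793 and 478 CPM with library totals, 2297, 940, 716 and 564 on the deposited scale, and 490, 388, 349 and 262 without H1-2. The libraries of Zab and Zab+MYC overlapped without H1-2. The variant sums of WT, MYC, Zab and Zab+MYC were 4167, 2755, 2996 and 2780 with library totals, 4682, 3255, 2371 and 2512 on the deposited scale, and 3219, 2194, 2375 and 2195 without H3-3B. With RLE scaling the variant sum of Zab+MYC was 2787.

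No sign that the replicate numbers pair the libraries was seen. Counting error can mask such a correlation, so the values below cannot settle whether libraries were paired. Deviations of same-numbered libraries correlated between -0.032 and 0.015 over 4059 genes in the 6 pairs of groups. The fit with a replicate block called 6147, 2416, 1965, 2632 and 2736 genes in the 5 comparisons, and among the members 8, 2, 4, 4 and 6 replication-dependent genes and 7, 7, 7, 2 and 6 variants. It added the call of H3-3A in Zab+MYC against MYC (adjusted p = 0.043) and lost none among the named members.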
